A study of Mus musculus with 12 samples.

Results

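The values below describe 10 imprinted genes of growth control, Cdkn1c, Igf2, H19, Dlk1, Meg3, Peg3, Mest, Plagl1, Grb10 and Ndn, in Schwann cells sorted from the sciatic nerve of the mouse. The members were chosen by name and matched to the count table by their Ensembl identifiers, which found 8 of the 10 among 25700 listed genes. H19 and Meg3 are not analysed here. The libraries came from postnatal day 5 (P5) mice on a C57bl/6J background that carried a Cre transgene (-/+), the ReYFP reporter (Tg/+) and βAct-DsRed (Tg/+). Every library of every gate shares this genotype. Cre is driven by a promoter of the Schwann lineage, so that eYFP marks cells of that lineage, and no mouse without Cre serves as a comparison. Nerves were dissociated enzymatically, and eYFP+ cells were sorted through 3 gates, with 4 libraries per gate. The allSC gate took the eYFP+ cells as a whole, mSC the cells of high side scatter and nmSC those of low side scatter, which the study used to enrich for myelinating and not myelinating Schwann cells. Each library came from 1 mouse, and the labels give the subject numbers 1 to 4 in all 3 gates, which are taken here as the same mouse in each, so that replicate number and mouse number are the same below. Sex was not used here, because the labels do not give it for each library.

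In an imprinted gene the copies from the mother and the father are not used alike, because germ-line marks such as methylation differ between them. Many such genes regulate fetal and postnatal growth, either by restraining the cell cycle or through the insulin-like growth factors (IGFs), and the copy from the father often favours growth while the copy from the mother often restrains it. Cdkn1c, Grb10 (in most tissues), H19 and Meg3 are transcribed from the maternal copy, and Igf2, Dlk1, Peg3, Mest, Plagl1 and Ndn from the paternal copy. In Schwann cells Cdkn1c, which encodes the inhibitor p57 of cyclin-dependent kinases, has been described as a brake on differentiation. Reads were counted per gene in mice of an inbred background and methylation was not measured, so that neither the parental copy in use nor the start site in use can be read from these data.

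RefSeq promoter windows on GRCm38.p6, from 250 bases before to 50 bases after an annotated start, were available for Igf2, Dlk1, Peg3, Mest, Plagl1, Grb10 and Ndn. Windows are shown for Ndn and Plagl1, because the levels of these genes went in opposite directions between the gates, and for both annotated starts of Grb10, because the starts of a single gene differ most in CpG dinucleotides, the bases that imprinting marks. Capitals mark each CpG (letters CG, which read the same on both strands).
Ndn, chr7:62348027-62348326, plus strand: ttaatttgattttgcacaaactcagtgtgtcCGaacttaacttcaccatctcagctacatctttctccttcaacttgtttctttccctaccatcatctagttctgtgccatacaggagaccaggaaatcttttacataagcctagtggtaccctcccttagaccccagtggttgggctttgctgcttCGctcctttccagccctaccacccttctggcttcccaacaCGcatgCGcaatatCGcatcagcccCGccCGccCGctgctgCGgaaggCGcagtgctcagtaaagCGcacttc
Plagl1, chr10:13090582-13090881, plus strand: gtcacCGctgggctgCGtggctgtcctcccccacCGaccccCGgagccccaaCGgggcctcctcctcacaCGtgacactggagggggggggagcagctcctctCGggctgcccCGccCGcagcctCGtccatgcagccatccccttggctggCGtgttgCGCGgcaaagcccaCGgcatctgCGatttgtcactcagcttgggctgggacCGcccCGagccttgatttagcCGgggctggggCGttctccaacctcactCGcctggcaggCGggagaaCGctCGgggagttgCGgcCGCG
Grb10, first start, chr11:12037371-12037670, minus strand: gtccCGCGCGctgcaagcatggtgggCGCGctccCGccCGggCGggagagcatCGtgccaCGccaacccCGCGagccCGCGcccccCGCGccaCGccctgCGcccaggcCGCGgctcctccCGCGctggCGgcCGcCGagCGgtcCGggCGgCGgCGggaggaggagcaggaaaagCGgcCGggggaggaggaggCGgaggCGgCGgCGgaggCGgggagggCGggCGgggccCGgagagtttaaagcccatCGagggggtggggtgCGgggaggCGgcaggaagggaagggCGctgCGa
Grb10, second start, chr11:12027922-12028221, minus strand: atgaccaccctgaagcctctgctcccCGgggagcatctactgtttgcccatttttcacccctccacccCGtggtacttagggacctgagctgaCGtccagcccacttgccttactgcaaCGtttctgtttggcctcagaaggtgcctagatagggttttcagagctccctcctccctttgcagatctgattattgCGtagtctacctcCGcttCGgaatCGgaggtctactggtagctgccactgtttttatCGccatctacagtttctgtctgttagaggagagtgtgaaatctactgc
The Ndn window holds 11 CpG and the Plagl1 window 26. The first start of Grb10 has 45 CpG and the second start 9. Over all 32851 windows of the table the median was 7 CpG, and 1.93% held at least as many as the first start of Grb10, 16.9% as many as Plagl1 and 41.4% as many as Ndn. These counts describe the sequence only.

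Libraries held 10092477 to 14482001 counts in allSC, 10777161 to 16918122 in mSC and 8180927 to 13077387 in nmSC. Levels are given in CPM, counts scaled to a common library total with edgeR's TMM factors, and 3 counts, taken as the floor, corresponded to 0.198 to 0.375 CPM. The myelin marker Mbp was higher in mSC, at 52034 ± 3476 CPM against 5658 ± 554 CPM in nmSC, as was Pmp22, at 78429 ± 9206 CPM against 6439 ± 749 CPM (SD, n = 4; edgeR adjusted p = 1.06e-12 and 6.92e-13). Of the 6 markers of cycling cells 6 were higher in nmSC, with sums of 69.9 to 124 CPM in mSC, 561 to 668 CPM in allSC and 922 to 1219 CPM in nmSC. The 4 markers of immature Schwann cells were higher in nmSC as well, 4 of 4. Of the 8 fibroblast markers 3 were higher in nmSC and none in mSC, with sums of 2074 to 4298 CPM in mSC and 12673 to 18879 CPM in nmSC. Those 3 were the collagen genes Col1a1, Col1a2 and Col3a1, while Pdgfra, Lum, Cd34, Dpt and Pi16 had gate means of at most 5.01 CPM. Summed markers of skeletal muscle were at most 4.41 CPM, of adipocytes at most 2.81 CPM of neurons at most 16.2 CPM, of erythroid cells at most 26.4 CPM and of immune cells at most 30.3 CPM. Of 5 genes that respond to dissociation, Egr1 and Atf3 were higher in nmSC and the other 3 did not pass. Of 4 perineurial markers 2 were higher in nmSC, Cldn1 (log2 fold change -1.27, edgeR adjusted p = 2.61e-05) and Itgb4 (-0.69, 0.00824), and 1 in mSC, with sums of 137 to 217 CPM in mSC and 204 to 339 CPM in nmSC. Markers of blood vessel walls went both ways. The endothelial sums were 50.2 to 72.7 CPM in mSC and 15.8 to 23.7 CPM in nmSC, with Kdr and Egfl7 higher in mSC but Pecam1 (-0.95, edgeR adjusted p = 0.0427) and Tek (-1.12, 0.0177) higher in nmSC. The mural sums were 26.1 to 40.0 CPM in mSC and 11.6 to 12.6 CPM in nmSC, with Tagln higher in mSC and Myh11 (-1.09, edgeR adjusted p = 0.00507) higher in nmSC. The part of these markers in the differences below was not tested, and in bulk libraries fewer cells of a type and less RNA per cell cannot be told apart.

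Between the mSC and nmSC gates, Cdkn1c, Mest, Grb10, Plagl1 and Peg3 were lower in mSC, and Ndn was higher in mSC. Igf2 did not pass the test, and Dlk1 was too low to be tested. Of the 10 members, 8 are listed and 7 passed the filter on low counts. Of these 7, 5 were higher in nmSC and 1 in mSC in the quasi-likelihood test of edgeR, with p adjusted by Benjamini-Hochberg over all tested genes. Of the 18597 tested genes, 40.5% were called in this comparison, 20.2% as higher in nmSC and 20.4% as higher in mSC. The mSC and nmSC libraries did not overlap for 6 of the 8 listed members, as for 34.2% of all tested genes. With DESeq2's size factors 5 of the 7 tested members did not overlap, and without the filter 5 of the 8. The share of all genes was not determined under these settings.

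**Figure D1:**
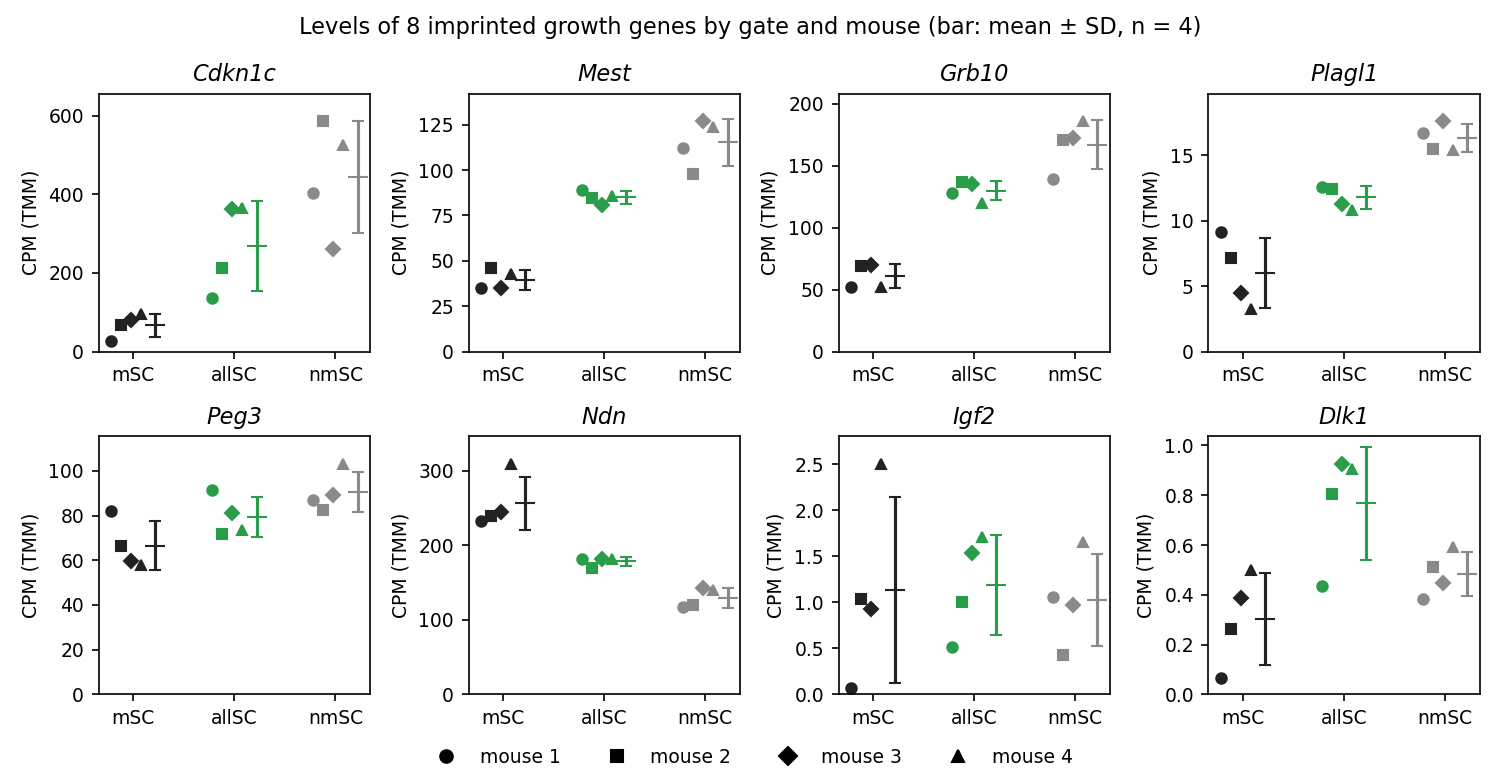
Level of each of the 8 listed members (vertical axis, TMM-scaled CPM, each panel from 0) in the 12 libraries, by gate on the horizontal axis and with a marker for each mouse. Bars give the mean and SD of 4 libraries. The mSC and nmSC points do not overlap for Cdkn1c, Mest, Grb10, Plagl1, Peg3 and Ndn, and overlap for Igf2 and Dlk1.

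Cdkn1c (ENSMUSG00000037664, GRCm38 chromosome 7, 143458339 to 143461050, minus strand) differed most among the members. In mice 1 to 4 its level was 26.5, 67.1, 80.3 and 94.6 CPM in mSC. The allSC libraries held 136, 212, 362 and 366 CPM. The nmSC libraries held 403, 586, 262 and 525 CPM. Every nmSC library was above every mSC library, while allSC and nmSC overlapped. The means were 67.2 ± 29.3 CPM in mSC and 444 ± 143 CPM in nmSC (SD, n = 4), a log2 fold change of -2.73 (standard error 0.353, edgeR adjusted p = 3.92e-06). Exons of an antisense gene on the other strand cover 30.7% of the exon bases of Cdkn1c, and the use of strand in counting is not stated.

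Cdkn1c belongs to the CIP/KIP family, whose 3 members bind and inhibit cyclin-dependent kinases, and its relatives Cdkn1a (p21) and Cdkn1b (p27) are not imprinted. Both relatives were higher in mSC, opposite to Cdkn1c. Cdkn1a had 688 ± 368 CPM in mSC and 136 ± 13.7 CPM in nmSC (log2 fold change 2.34, edgeR adjusted p = 3.97e-07). Cdkn1b had 279 ± 43.6 CPM in mSC and 140 ± 24.4 CPM in nmSC (SD, n = 4; log2 fold change 1.00, edgeR adjusted p = 1.77e-05). The summed level of the 3 genes overlapped between the gates, at 634 to 1651 CPM in mSC and 526 to 827 CPM in nmSC. The gate with more Cdkn1c RNA was also the gate with more RNA of the cycling markers, and their part in its level was not tested.

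Grb10 (ENSMUSG00000020176, chromosome 11, 11930508 to 12038683, minus strand) encodes an adaptor protein that binds the insulin and IGF receptors and dampens their signal. Its level was 52.2, 69.4, 69.5 and 52.3 CPM in the mSC libraries of mice 1 to 4. The nmSC libraries held 139, 171, 172 and 186 CPM, all above those of mSC. In allSC the values were 128, 137, 135 and 120 CPM. From nmSC to mSC the log2 fold change was -1.455 (standard error 0.136, edgeR adjusted p = 5.54e-08). The deposited counts do not say which of the 2 starts shown above was in use.

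Igf2 (ENSMUSG00000048583, chromosome 7, 142650766 to 142666816, minus strand) encodes a secreted growth factor and was near the floor in every gate. Its counts ran from 1 to 25 per library, with a mean of 1.14 ± 1.01 CPM in mSC, 1.19 ± 0.545 CPM in allSC and 1.03 ± 0.501 CPM in nmSC (SD, n = 4). The log2 fold change of mSC over nmSC was 0.04 with a standard error of 0.646 (edgeR adjusted p = 0.969), and no difference was detectable at this depth. The direction of this value changed with several settings. Gm49394, an annotated gene on the same strand that shares 62.8% of the exon bases of Igf2, had the same count as Igf2 in 8 of 12 libraries and differed by at most 2 counts in the others.

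Around these members, the 20 genes fixed for the IGF axis were all tested. Grb10 and Igf2 are among them. Higher in nmSC were 9 of the 20, and 5 were higher in mSC, where 20.2% and 20.4% of all tested genes were, with a median log2 fold change of -0.53 beside -0.16 over all tested genes. The binding proteins, which carry IGFs outside the cell, went both ways. Igfbp3 had 4.49 ± 1.92 CPM in mSC and 26.1 ± 2.81 CPM in nmSC (log2 fold change -2.51), and Igfbp4 had 6.81 ± 3.38 and 29.6 ± 1.37 CPM (log2 fold change -2.16). Igfbp7 was also higher in nmSC. Igfbp2 was higher in mSC, at 22.6 ± 9.97 against 5.49 ± 1.04 CPM (SD, n = 4; log2 fold change 2.04), as were Igfbp5 and Igfbp6. The call of Igfbp5 (edgeR adjusted p = 0.0173) did not hold when scaled by library size alone (0.518) or without mSC replicate 3 (0.0524) or nmSC replicate 1 (0.0538).

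Of the receptors, Igf1r was higher in nmSC (14.9 ± 2.64 CPM in mSC and 26.0 ± 5.03 CPM in nmSC, SD, n = 4, log2 fold change -0.80). The clearance receptor Igf2r, itself imprinted, had 18.7 ± 5.94 and 15.9 ± 2.17 CPM and did not pass (edgeR adjusted p = 0.329), although it did without mSC replicate 4 (log2 fold change 0.43, edgeR adjusted p = 0.0343). The docking proteins behind the receptors were split, with Irs1 higher in mSC (log2 fold change 1.37) and Irs2 higher in nmSC (log2 fold change -0.74). Grb14, a relative of Grb10, was higher in mSC at 164 ± 26.3 CPM against 85.6 ± 7.34 CPM (SD, n = 4, log2 fold change 0.94, edgeR adjusted p = 9.11e-06), opposite to Grb10. The RNA-binding proteins Igf2bp1, Igf2bp2 and Igf2bp3, named for their binding to Igf2 RNA, were higher in nmSC. The call of Igf2bp2 (log2 fold change -0.32, edgeR adjusted p = 0.0483) was lost in most alternatives. Igf1, the other ligand, had 3.89 ± 1.87 and 4.56 ± 1.14 CPM and did not pass (edgeR adjusted p = 0.498).

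Plagl1 (ENSMUSG00000019817, chromosome 10, 13060504 to 13131694, plus strand) encodes a zinc finger transcription factor. In the mSC libraries of mice 1 to 4 it had 9.17, 7.13, 4.51 and 3.25 CPM. The nmSC libraries were close together at 16.7, 15.5, 17.6 and 15.4 CPM, and the allSC libraries at 12.6, 12.4, 11.3 and 10.8 CPM. No library of one gate overlapped another gate. From nmSC to mSC the log2 fold change was -1.41 (standard error 0.228, edgeR adjusted p = 5.63e-05). The spread was in mSC, where the SD was 44.2% of the mean (6.01 ± 2.66 CPM), against 6.33% in nmSC.

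Peg3 (ENSMUSG00000002265, chromosome 7, 6703892 to 6730431, minus strand), another zinc finger protein, differed least among the members that passed. It had 82.2, 66.5, 59.8 and 57.7 CPM in mSC and 87.1, 82.3, 89.2 and 103 CPM in nmSC. The highest mSC library lay just below the lowest nmSC library. The log2 fold change was -0.44 (standard error 0.138, edgeR adjusted p = 0.0165). The call did not hold without mSC replicate 3 (edgeR adjusted p = 0.0681) or without nmSC replicate 4 (edgeR adjusted p = 0.0592).

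Mest (ENSMUSG00000051855, chromosome 6, 30723547 to 30748465, plus strand) encodes a protein of the alpha/beta hydrolase fold. Its mSC libraries held 35.3, 45.8, 34.8 and 42.7 CPM and its nmSC libraries 112, 98.0, 127 and 124 CPM. The allSC libraries lay between them at 89.0, 84.8, 80.6 and 85.8 CPM, with no overlap between any gates. From nmSC to mSC the log2 fold change was -1.54 (standard error 0.132, edgeR adjusted p = 1.58e-08). The 3′ part of Copg2 lies on the other strand over 23.1% of the exon bases of Mest, and Copg2 was also lower in mSC (29.1 ± 4.36 against 38.7 ± 4.47 CPM, SD, n = 4, log2 fold change -0.41, edgeR adjusted p = 0.0246). Reads of the shared stretch cannot be assigned without strand, and the call of Copg2 was lost under 3 other settings, and when mSC replicate 2 or 3 or nmSC replicate 1 or 4 was left out.

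Ndn (ENSMUSG00000033585, chromosome 7, 62346569 to 62350262, plus strand) encodes necdin, a protein of the MAGE family that restrains growth in neurons. Its direction was opposite to that of the 5 other called members. The mSC libraries held 232, 239, 245 and 309 CPM and the nmSC libraries 117, 120, 143 and 140 CPM. The allSC libraries held 182, 170, 182 and 181 CPM, between the other gates and without overlap. From nmSC to mSC the log2 fold change was 0.98 (standard error 0.123, edgeR adjusted p = 2.85e-06). No other annotated gene shares exon bases with Ndn.

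Dlk1 (ENSMUSG00000040856, chromosome 12, 109452823 to 109463336, plus strand), a membrane protein related to the Notch ligands, had 1 to 12 counts per library. Its level was 0.304 ± 0.185 CPM in mSC, 0.768 ± 0.227 CPM in allSC and 0.485 ± 0.0892 CPM in nmSC (SD, n = 4). The gates overlapped and a difference between mSC and nmSC was not detectable at this depth. Exact permutation tests on log2(CPM + 1) over the 8 listed members, two-sided and with 4 libraries against 4, gave the smallest p that the design allows, 0.0286, for the 6 members whose libraries did not overlap (0.0381 after Benjamini-Hochberg adjustment over the 8). The same exact test gave p = 0.143 for Dlk1 and p = 0.914 for Igf2.

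**Figure D2:**
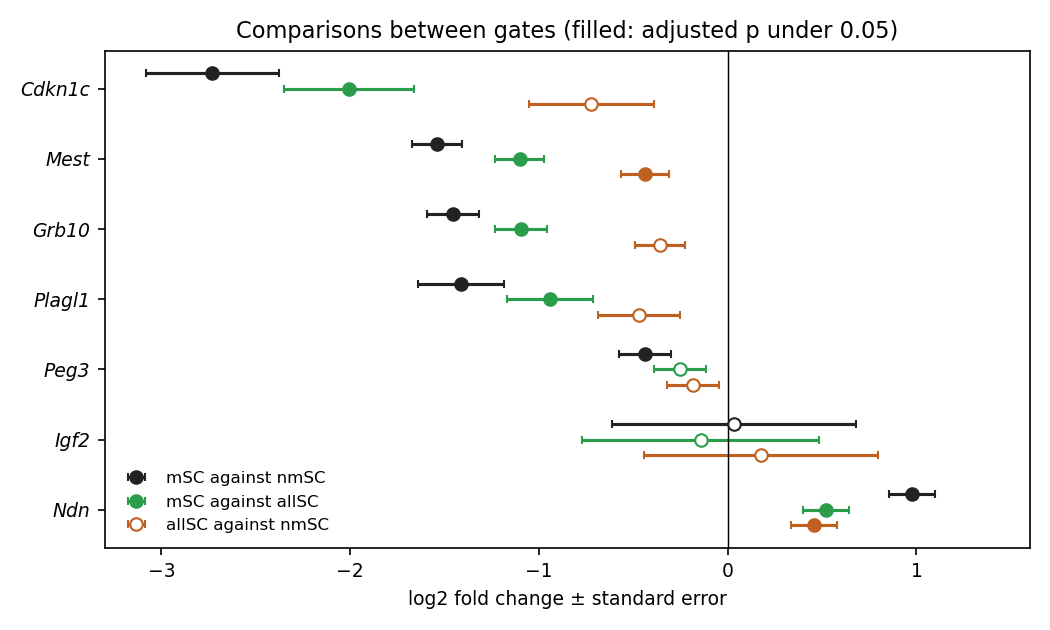
Log2 fold change (horizontal axis) and its standard error for the 7 tested members in the 3 comparisons, which share libraries. Filled points had an edgeR adjusted p under 0.05. Ndn lies to the right in every comparison, Cdkn1c lies farthest to the left when mSC is compared, and the bars of Igf2 cross 0 throughout.

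The mean of the allSC gate lay between those of the other gates for each of the 6 called members, and above both for Igf2 and Dlk1. On the scale of the gate means, with mSC at 0% and nmSC at 100%, allSC lay at 53.6% for Cdkn1c, 54.4% for Peg3, 55.8% for Plagl1, 60.1% for Mest, 61.5% for Ndn and 65.2% for Grb10. Over the 1382 genes higher in nmSC for which this was computed the median position was 53.6% (quartiles 44.9 and 60.4%), and over the 3286 genes higher in mSC it was 57.7% (quartiles 48.7 and 67.3%). Grb10 thus lay above the upper quartile of its group and the other 5 members lay within the quartiles of theirs. For Cdkn1c the position differed between mice, at 29.2%, 28.0%, 155% and 63.0% in mice 1 to 4. In mouse 3 the allSC library therefore held more Cdkn1c than the nmSC library of the same mouse.

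Against allSC, mSC was lower in Cdkn1c (log2 fold change -2.01, edgeR adjusted p = 0.000355), Mest (-1.10, 5.37e-06), Grb10 (-1.095, 8.98e-06) and Plagl1 (-0.94, 0.00722). Ndn was higher in mSC (0.52, edgeR adjusted p = 0.00561), and Peg3 and Igf2 did not pass (edgeR adjusted p = 0.215 and 0.898). Thus 4 of the 7 tested members were higher in allSC and 1 in mSC, where 8.8% and 8.76% of all tested genes were, and 17.6% in either direction.

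The allSC and nmSC gates differed less. Mest was lower in allSC (log2 fold change -0.44, standard error 0.128, edgeR adjusted p = 0.0331) and Ndn higher (0.46, standard error 0.122, edgeR adjusted p = 0.0192), which makes 1 of 7 in each direction. Of all tested genes 10.4% were called here, 2.83% being higher in nmSC and 7.54% higher in allSC. With the mouse as a block the edgeR adjusted p of Mest was 0.0591 and that of Ndn 0.021. Leaving out a library ended the call of Mest for 7 of the 8 libraries, the exception being nmSC replicate 2, and that of Ndn for allSC replicates 1, 3 and 4 and nmSC replicates 1 and 2. Cdkn1c had a log2 fold change of -0.72 with a standard error of 0.330 (edgeR adjusted p = 0.209; 0.0702 with the block). In a fit of only these 2 gates Cdkn1c, Plagl1 and Grb10 passed as well, at edgeR adjusted p of 0.0489, 0.0142 and 0.0124. That fit called 2899 of 18137 tested genes, 1750 of them as higher in allSC.

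Levels were compared between genes only per kilobase of the union of exons (RPKM, from the TMM-scaled CPM). In nmSC the order was Cdkn1c (218 ± 70.1 RPKM), Ndn (35.2 ± 3.65), Mest (29.2 ± 3.32), Grb10 (18.4 ± 2.16), Peg3 (6.78 ± 0.652), Plagl1 (2.09 ± 0.132), Igf2 (0.179 ± 0.0875) and Dlk1 (0.0856 ± 0.0158; SD, n = 4). Ndn and Mest overlapped between libraries, as did Igf2 and Dlk1, and the other neighbours in this order did not. In mSC Ndn came first at 69.4 ± 9.66 RPKM and Cdkn1c second at 32.9 ± 14.4 RPKM, without overlap at this length. Per mean transcript length these means were 69.4 and 59.9 RPKM. Per kilobase of the union of exons Grb10 and Peg3 overlapped in mSC, as did Plagl1 with Igf2 and Igf2 with Dlk1. In allSC the order was that of nmSC, with overlap between Igf2 and Dlk1 alone. Per mean transcript length the nmSC levels of Mest (108 RPKM) and Grb10 (82.7 RPKM) were above that of Ndn (35.2 RPKM), so the order below the first place in nmSC depends on the length used, as does the gap between Ndn and Cdkn1c in mSC, while Cdkn1c was first in nmSC under the 3 lengths tried.

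**Figure D3:**
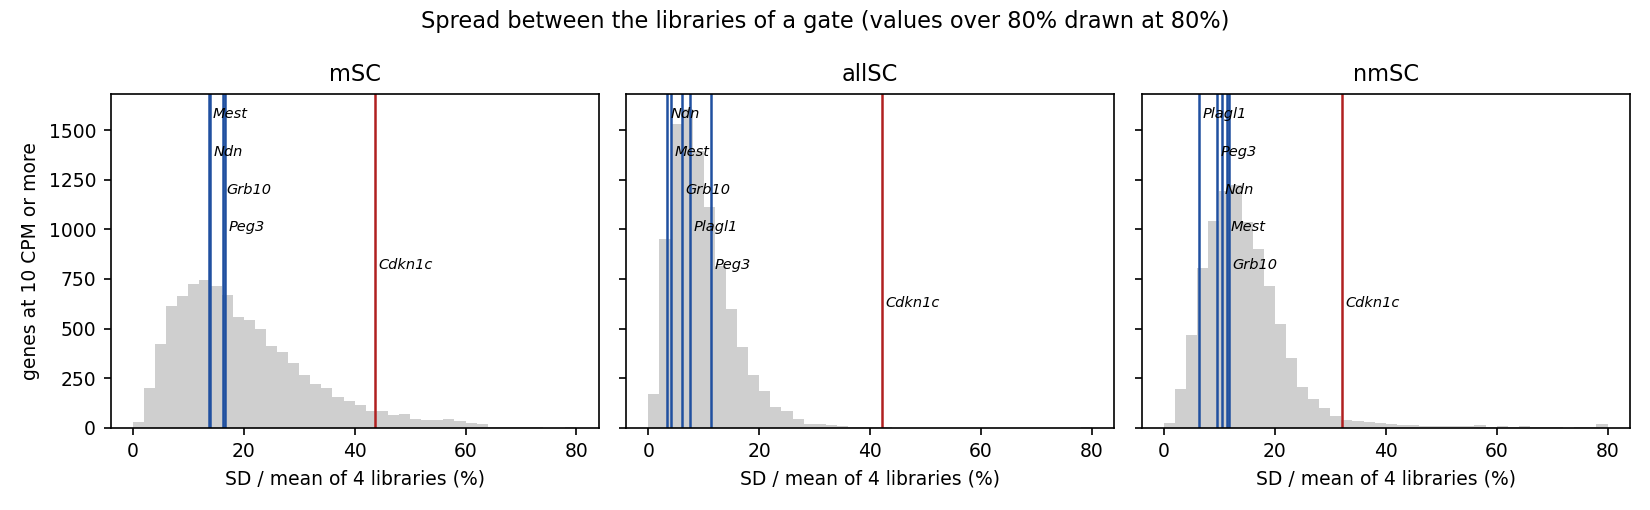
Spread between the 4 libraries of a gate, as the SD in percent of the mean (horizontal axis), for genes with a gate mean of at least 10 CPM (grey histogram, number of genes on the vertical axis) and for the members (lines). Cdkn1c stands at 43.7% in mSC, 42.2% in allSC and 32.2% in nmSC, to the right of the other members drawn.

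Libraries of the same gate differed more in Cdkn1c than in the other members with a mean of at least 10 CPM in that gate. Its SD was 42.2% of its mean in allSC, where the median over 9353 genes with at least 10 CPM was 8.53% and 99.9% of these genes had a smaller value. In mSC it was 43.7% (median of genes 17.4%, 94.6% smaller) and in nmSC 32.2% (median 13.5%, 96.8% smaller). Mest, Grb10, Peg3 and Ndn had between 3.41% and 16.7% in any gate. Plagl1 had 7.52% in allSC and 6.33% in nmSC. In mSC, where its mean was 6.01 CPM, it had 44.2%, slightly above Cdkn1c. The ratio of nmSC to mSC within a mouse accordingly varied for Cdkn1c, at 15.2, 8.73, 3.27 and 5.54 in mice 1 to 4. For Mest the ratio ran from 2.14 to 3.63, for Grb10 from 2.46 to 3.55, and for Ndn from 0.454 to 0.585. Plagl1 had a ratio of 1.82 in mouse 1 and 4.76 in mouse 4, so that the mouse with the largest ratio of Cdkn1c had the smallest of Plagl1.

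The design allows the question whether this spread follows the mouse, since each mouse gave a library to all 3 gates. Cdkn1c was below the mean of its gate in all 3 libraries of mouse 1, with a mean deviation of -0.70 in log2(CPM + 1). The nmSC library of mouse 1 deviated by only -0.08, against -0.86 in allSC and -1.17 in mSC. In mouse 4 all 3 libraries were above the mean, by 0.55 in allSC, 0.63 in mSC and 0.3 in nmSC (mean 0.49). In mice 2 and 3 the gates disagreed. The quasi-likelihood test of the mouse terms called none of the 7 tested members (0 of 7, edgeR adjusted p = 0.997 for each), against 0.0538% of all tested genes. At an unadjusted p under 0.05 there was 1 of the 7, Cdkn1c (edgeR unadjusted p = 0.0193). The share of all tested genes under that unadjusted threshold was not determined, so this count has no background beside it.

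**Figure D4:**
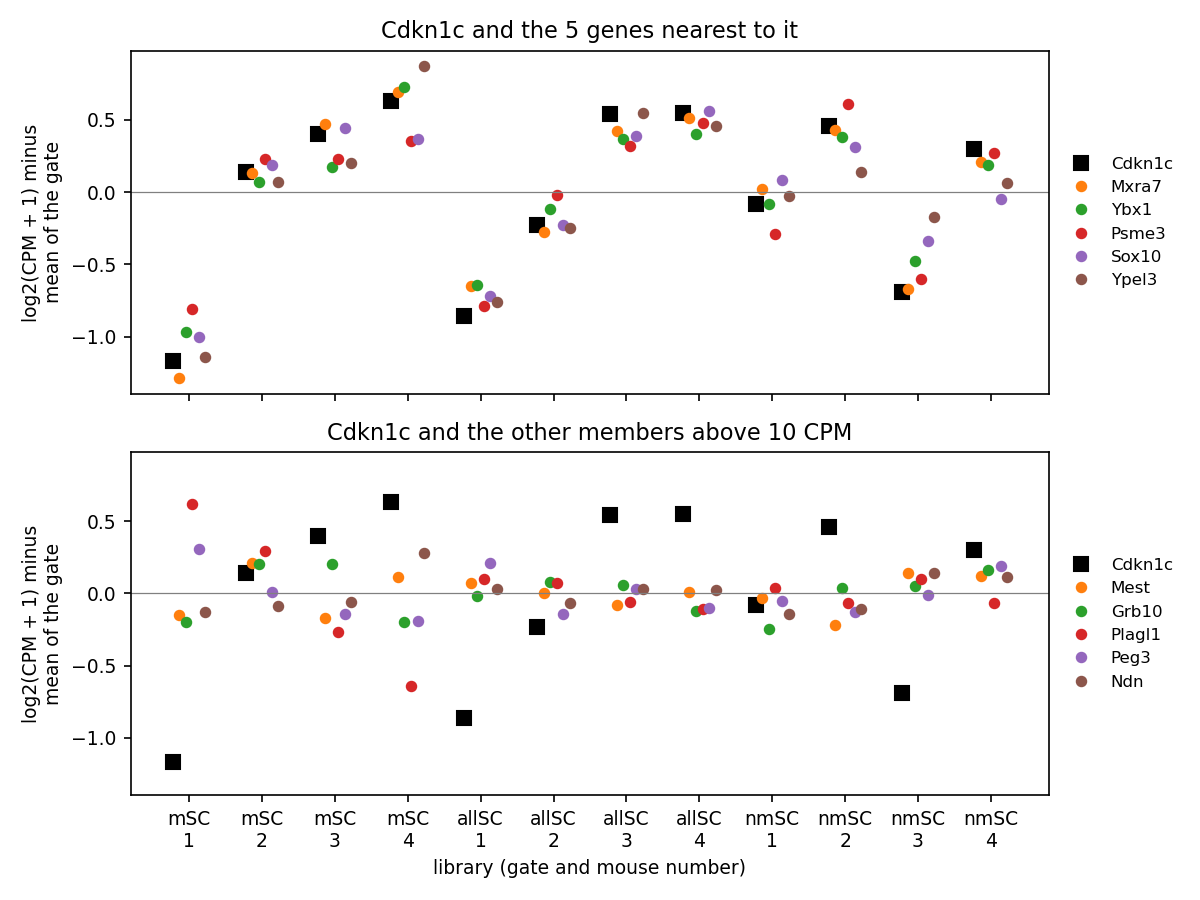
Deviation of log2(CPM + 1) from the mean of its gate (vertical axis) in each of the 12 libraries (horizontal axis), for Cdkn1c and the 5 genes nearest to it by this measure (upper panel) and for Cdkn1c and the other members above 10 CPM (lower panel). The 5 genes lie around Cdkn1c in the upper panel, whereas the other members lie closer to 0 in the lower panel, with Plagl1 opposite to Cdkn1c in mSC replicates 1 and 4.

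Other genes had the same library pattern as Cdkn1c within gates. Over 12 libraries and 9404 genes with a mean of at least 10 CPM, the root mean square distance between within-gate deviations was smallest for Mxra7 (0.0954), Ybx1 (0.154), Psme3 (0.188), Sox10 (0.192) and Ypel3 (0.217), where the deviations of Cdkn1c themselves had a root mean square of 0.586. This measure was added after the values were seen, and genes at the top of 9404 are near by selection. Sox10, the transcription factor that defines the Schwann lineage, did not differ between mSC and nmSC (267 ± 97.6 and 266 ± 49.8 CPM, SD, n = 4, edgeR adjusted p = 0.993), yet it deviated by -0.72 in allSC replicate 1 and 0.56 in allSC replicate 4, where Cdkn1c deviated by -0.86 and 0.55. Of the members, Ndn was the nearest by this measure at 0.569, at rank 3182. A gene without any deviation would lie at 0.586, and Ndn itself deviated only by -0.14 to 0.28. Its distance therefore does not show a shared pattern.

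Cdkn1c is rich in G and C bases (59.8% of its transcripts' bases, median of these genes 49.6%), as are Mxra7 (58.1%), Sox10 (62.7%) and Ypel3 (60.8%), while Ybx1 (52.2%) and Psme3 (48.6%) are less so. The median deviation of the 646 genes with 58 to 62% was -0.14 in mSC replicate 1, -0.03 in allSC replicate 1 and 0.17 in nmSC replicate 3, where Cdkn1c deviated by -1.17, -0.86 and -0.69. With offsets for GC content per library the log2 fold change of Cdkn1c between mSC and nmSC was -2.84 (edgeR adjusted p = 3.33e-06), and -2.94 with the mouse as a block besides. These fits concern the difference between gates. The part of GC content in the spread within gates was not tested.

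When the difference between gates was kept in the measure, the genes most like Cdkn1c included Stil (distance 0.372), Mmp14 (0.392), Cdkn2c (0.409) and Alcam (0.426). Each of these was low in mSC, intermediate in allSC and high in nmSC, as in Cdkn2c, an inhibitor of cyclin-dependent kinases of another family, with 12.4, 33.7 and 53.4 CPM. Among the members Grb10 (0.799) and Mest (0.809) were nearest to Cdkn1c, but only at ranks 336 and 356 beside the 9404 genes. Plagl1 (1.02, rank 650), Peg3 (1.22, rank 1610) and Igf2 (1.22, rank 1720) followed, and Ndn was farthest (1.66, rank 8278). Igf2, near the floor in every gate, was thus at the same distance as Peg3.

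**Figure D5:**
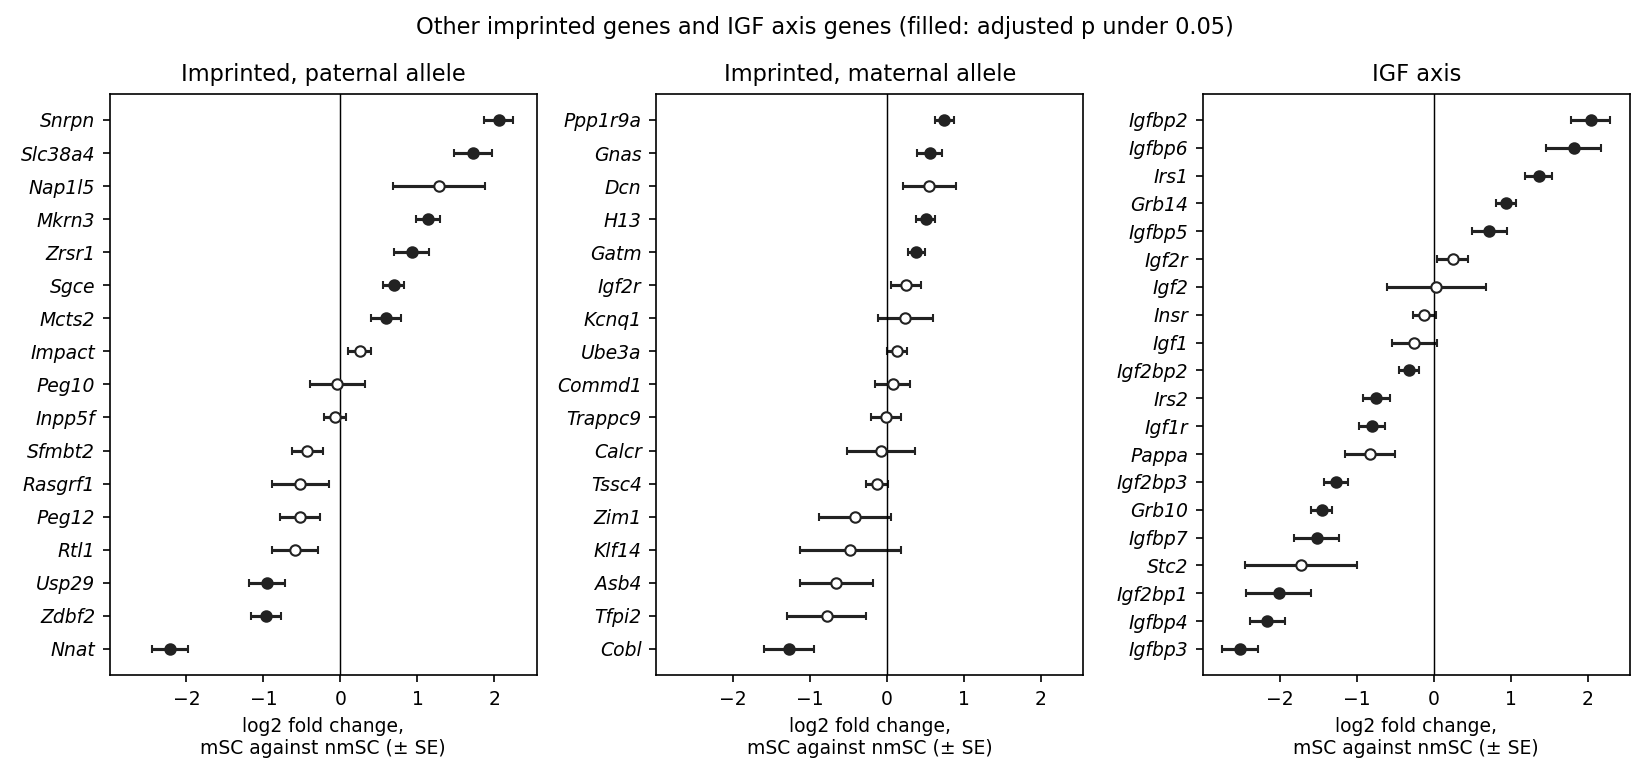
Log2 fold change of mSC against nmSC and its standard error (horizontal axis), 1 gene per line, for other imprinted genes and the IGF axis. The imprinted genes are split into those listed as expressed from the paternal or the maternal copy. Filled points had an edgeR adjusted p under 0.05. The called genes lie on both sides of 0 in each panel, from Nnat at -2.21 to Snrpn at 2.05 among the imprinted genes.

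Other imprinted genes were called in both directions. Of 46 further imprinted genes fixed as lists, 40 are listed and 34 were tested, of which 10 were higher in mSC and 4 in nmSC, where 20.4% and 20.2% of all tested genes were. The median log2 fold change was -0.04 over 17 genes listed for the paternal copy and 0.07 over 17 listed for the maternal copy. Over all tested genes it was -0.16. Scaled by library size alone the counts became 3 and 15, and 11864 of all 18597 tested genes were called, 1443 of them as higher in mSC. The values of H13, Gnas and Gatm then changed sign, and Sgce (log2 fold change 0.12, edgeR adjusted p = 0.331), Zrsr1 (0.35, 0.179), Mcts2 (0.0092, 0.965) and Ppp1r9a (0.18, 0.202) did not pass.

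Among the genes listed as paternally expressed was Snrpn, a splicing protein gene of the Prader-Willi region. It had 66.1 ± 21.1 CPM in mSC and 15.8 ± 2.57 CPM in nmSC (log2 fold change 2.05, edgeR adjusted p = 5.56e-08). Slc38a4, an amino acid transporter gene, Mkrn3, Zrsr1, Sgce and Mcts2 were also higher in mSC (log2 fold changes 1.72, 1.14, 0.92, 0.69 and 0.59), and Mcts2 also did not pass without mSC replicate 4 (edgeR adjusted p = 0.0686). Nnat, which encodes neuronatin, was higher in nmSC, with 9.13 ± 1.62 CPM against 1.99 ± 0.379 CPM (log2 fold change -2.21, edgeR adjusted p = 3.6e-07). Usp29 and Zdbf2 were higher in nmSC as well (log2 fold changes -0.95 and -0.96). Among the genes listed as maternally expressed, Ppp1r9a, Gnas, H13 and Gatm were higher in mSC by 0.75, 0.55, 0.50 and 0.38 on the log2 scale. Cobl was higher in nmSC (-1.28). The parental copy is that of the lists, and the copy in use in these cells was not measured.

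Imprinted genes lie in clusters, and 46 listed genes start within 200 kb of a member. Of these 35 were tested, with 6 higher in mSC and 8 in nmSC, shares near the 20.4% and 20.2% of all tested genes. Next to Ndn on chromosome 7, Mkrn3 was higher in mSC as Ndn was, at 14.7 ± 1.71 CPM against 6.64 ± 0.434 CPM, while Peg12 had 7.69 ± 3.27 and 10.9 ± 2.13 CPM (SD, n = 4) and did not pass (edgeR adjusted p = 0.108). Usp29, which starts beside Peg3, was higher in nmSC as Peg3 was. Next to Cdkn1c, the imprinted genes Phlda2 and Slc22a18 were at or below 0.518 CPM in the mean of each gate and were not tested, and Nap1l4 was higher in mSC, at 197 ± 4.92 CPM (SD, n = 4) against a mean of 145 CPM (log2 fold change 0.44, edgeR adjusted p = 0.00322, but -0.13 when scaled by library size alone). Farther from Cdkn1c, Tnfrsf22 was higher in mSC (log2 fold change 0.88, edgeR adjusted p = 0.0021) and Tnfrsf26, at 1.39 CPM in nmSC, higher in nmSC (-1.42, 0.0281). Near Mest, the low Cpa4 and Cpa5 were higher in nmSC (-1.64 and -1.66, edgeR adjusted p = 0.000727 and 0.0244). The call of Tnfrsf22 was lost when scaled by library size alone (edgeR adjusted p = 0.204). Those of Tnfrsf26 and Cpa5 were lost without nmSC replicate 1 (0.0527 and 0.0503), nmSC replicate 2 (0.115 and 0.0687) or mSC replicate 3 (0.0907 and 0.0822), and that of Cpa5 also without mSC replicate 4 (0.0603). Near Plagl1, Utrn was higher in mSC (log2 fold change 1.91, edgeR adjusted p = 3.69e-10), opposite to Plagl1.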

How the data were processed

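RNA of sorted Schwann cells was measured by Smart-Seq2, which amplifies polyadenylated RNA by PCR without molecular identifiers, so that counting floors cover counting error only. The authors aligned reads with STAR 2.6.1c and counted them per gene with featureCounts, and the deposited counts are whole numbers without normalization. The submitters' processing notes name GRCm38.p5, whereas the methods name a human build, and the identifiers are of mouse. Options for strand and overlapping genes are not given in the sources used here. Identifiers, positions and exon lengths came from GENCODE M21 (GRCm38), which matched 25664 of 25700 genes, and 0 count columns were left out.

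Gates were compared with edgeR 4.0.16 in R 4.3.3 (TMM factors, expression filter by gate, quasi-likelihood test, Benjamini-Hochberg adjustment, threshold 0.05) in 1 model over 12 libraries. Mouse terms were tested in a model of gate and mouse. DESeq2 1.42.0, other scalings, no filter, 2 gates only, the mouse as replicate block, other lengths or pseudocounts and leaving out each library were alternatives, and GC offsets and the within-gate likeness were added after seeing the data. The steps were tested on simulated data. Distances and permutation tests used log2(CPM + 1).

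The labels give the same subject number to 1 library of each gate, so the numbers pair libraries by mouse. Correlations of same-numbered deviations between mSC and nmSC were -0.225, 0.0591, 0.153 and -0.128. Those of differently numbered libraries of these gates ran from -0.148 to 0.27. Same-numbered libraries were thus not more alike than others between these gates, and the pairing rests on the labels. No libraries were duplicates (chi-square per degree of freedom from 4.03 to 95.7 over genes with at least 20 counts). The members and lists were chosen with earlier results of these data known. The text names all members, genes of the fixed lists beside the counts of their list, and genes among the 5 nearest to Cdkn1c by each distance. Results that need certain withheld items are not reported here. The H19 and Meg3 genes, and the sex of the mice, were not analysed here.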

Additional observations from a re-analysis of the deposited data

Results flagged for a closer look

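Among the levels of the 8 listed members in the 3 gates, 2 samples stood apart from the other 3 of their gate by more than the 95% critical value of Dixon's test, and both concern Ndn. In allSC, replicate 2 had 170 CPM where the others had 181 to 182 CPM, a gap of 87.4% of the range of the gate. In mSC, replicate 4 had 309 CPM where the others had 232 to 245 CPM, a gap of 83.2% of the range. Chance alone flags about 1 in 20 groups, and 24 groups were examined. Without mSC replicate 4 or any other single library the log2 fold change of Ndn between mSC and nmSC stayed between 0.88 and 1.04 and passed the test.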

How the results depend on the processing

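Between mSC and nmSC, 5 members were higher in nmSC and 1 in mSC under each alternative that kept all libraries, and 4 to 5 and 1 when a library was left out. Without single libraries the further imprinted genes gave 10 to 11 higher in mSC and 4 to 6 in nmSC, and the IGF axis 4 to 6 and 8 to 11. Scaling by library size alone moved the median over all tested genes, on the log2 scale, from -0.16 to -0.73. It called 11864 of 18597 tested genes between mSC and nmSC, 1443 of them as higher in mSC. In the reported fit these numbers were 7540 and 3792. Under it 3 other imprinted genes were higher in mSC (10 in the reported fit) and 15 in nmSC (4). In allSC against nmSC 0 members were then higher in allSC and 5 in nmSC, and in mSC against allSC 0 were higher in mSC. This scaling called 2951 of all tested genes in allSC against nmSC, 744 as higher in allSC. In mSC against allSC it called 4400, 415 as higher in mSC. In allSC against nmSC, 0 members were higher in nmSC without the filter, with the mouse block, and with GC offsets and the block together. In the fit of only 2 gates 4 were, and it called 2899 of 18137 tested genes, 1750 of them as higher in allSC. Leaving out libraries gave 0 to 1 members in either direction in allSC against nmSC. The mouse as a block ended the call of Igf2bp2 (log2 fold change -0.32, edgeR adjusted p = 0.0722) and of Mest in allSC against nmSC, and changed no other call of a named gene. Signs changed under library size for Igf2 (-0.55 in mSC against nmSC, -0.067 in allSC against nmSC), Igf2r (-0.29), H13 (-0.065), Gnas (-0.032), Gatm (-0.18) and Nap1l4 (-0.13). Igf2 also changed sign with the block (-0.11), with GC offsets (-0.013) and with both (-0.14). Without single libraries it ran from -0.64 to 0.49 in mSC against nmSC, from -0.071 to 0.52 in allSC against nmSC and from -0.79 to 0.32 in mSC against allSC. The causes were not tested. With 1 to 25 counts per library, depth limits what can be said of Igf2 and Dlk1.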
